A study of Mus musculus with 4 samples.

Results

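The genes described here encode the proteins that carry a signal from activated Toll-like receptors to NF-kB, the interferon regulatory factors and the MAP kinases: adaptors, IRAK kinases, ubiquitin ligases, and the TAK1, IKK, TBK1 and MAP kinase modules. They were chosen by gene symbol from a list of 39 genes, with no measured value used. Of these 39 genes, 33 had a probe set annotated to that symbol alone, among 19938 genes so annotated in all. Irak4, Traf3, Chuk, Ripk1, Ripk2 and Mapk3 were not analysed here.

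Microglia are macrophages that live in the brain; here those of mice were profiled, with labelled DNA made from their total RNA hybridised to 4 whole-transcript arrays (Affymetrix Mouse Gene 1.0 ST). The groups, with 1 array each, were microglia labelled Bid-/- given lipopolysaccharide (LPS) for 3 h, untreated microglia labelled Bid-/-, wild-type (WT) C57Bl microglia given LPS for 3 h, and untreated WT C57Bl microglia. Bid is a pro-apoptotic relative of Bcl-2, and the series compares the inflammatory profile of cells with and without it. The sources used here do not give the LPS dose, the strain of the animals labelled Bid-/-, or the age, sex and number of animals or cultures. All values below are log2 expression of a probe set as deposited, so a difference of 1 is 2-fold. A difference between 2 single arrays carries no replicate check, since each group is 1 array, and levels of different probe sets were not set against each other.

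LPS, a component of the bacterial outer membrane, is sensed by Tlr4 with its co-receptors Cd14 and Ly96. At the membrane the receptor recruits Tirap and Myd88, which assemble IRAK kinases and the ubiquitin ligase Traf6. From endosomes it signals through Ticam2 and Ticam1 to Tbk1 and the interferon regulatory factors. Ubiquitin chains made on these complexes recruit TAK1 and the IkB kinase (IKK); IKK frees NF-kB, and TAK1 also switches on the MAP kinases. In microglia this cascade drives cytokine and chemokine production.

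The single Bid probe set read 5.97 with LPS and 5.53 without it on the arrays labelled Bid-/-, and 5.02 with LPS and 5.69 without it on the WT arrays. It was therefore 0.95 higher on the LPS array labelled Bid-/- than on the WT LPS array, against its label. The sources used here do not say whether its probes lie in the deleted part, and every direction between genotypes below rests on the labels. Of 12 microglial markers, 11 were at or above the intensity floor of 4.26 on all 4 arrays; P2ry12 was above it on both untreated arrays only. The floor was set at the middle of the 4-array means of the 28944 probe sets. Of the neutrophil, neuronal and lymphocyte markers, 6 of 6, 5 of 6 and 4 of 5 were below the floor on every array, as were the astrocyte markers Gfap and Aqp4. At or above it on all arrays were 4 of 6 oligodendrocyte, 2 of 5 endothelial and 1 of 7 astrocyte markers. Fibroblast and mural cell markers were present (7 of 9 at or above the floor on all arrays), with list medians of 5.98 (labelled Bid-/-, LPS), 6.02 (labelled Bid-/-, control), 5.89 (WT, LPS) and 5.15 (WT, control). Summed on the linear scale these 9 genes reached 625, 745, 683 and 358 on the same arrays, so they were lowest on the WT control array. Fewer cells of a type and less RNA per cell cannot be told apart in such bulk samples.

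Of the 33 measured genes, 32 were at or above the floor on all 4 arrays. Map2k6, a kinase of the p38 branch, was below it on all 4 (3.80, 3.68, 3.55 and 3.52 on the labelled Bid-/- LPS, labelled Bid-/- control, WT LPS and WT control arrays), and is left out of the counts. No gene passed through its high group alone.

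After 3 h of LPS most of this machinery read within 1.5-fold of the untreated cells, as did most of all genes. Peli1 was the only gene of the 32 at least 2-fold higher. It was so on the arrays of both labels, where 1.65% of 11326 genes were. In each genotype taken alone, the count was 1 of 32 on the arrays labelled Bid-/- (2.7% of 10995 genes) and 1 of 32 on the WT arrays (2.39% of 11129 genes). None (0 of 32) was at least 2-fold lower on either pair, against 1.65% of genes on the arrays labelled Bid-/- and 2.08% on the WT arrays. At least 2-fold lower on both pairs were 0 of 32, against 0.936% of genes. The split of all genes past 2-fold depends on scaling: 62.1% of them were higher ones on the arrays labelled Bid-/- and 53.5% on the WT arrays, or 79.1% and 66.1% with a trend on intensity removed.

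At the lower bar of 1.5-fold, 6 genes were higher and 1 lower on the arrays labelled Bid-/- (6.88% and 10.4% of all genes). On the WT arrays 8 were higher and 1 lower (5.8% and 11.1% of all genes). Peli1, Ticam1, Irak2 and Mapkapk2 passed that bar upwards in both genotypes, 4 of 32 against 3.63% of all genes, and 0 of 32 were lower in both against 5.35%. The direction of the LPS difference was the same in both genotypes for 29 of 32 genes, or 90.6%, against 68.6% of all genes. The 32 genes were brighter, with a median 4-array mean of 7.66 against 6.21 over all genes past the floor on any array. The part of brightness in this agreement was not tested. The median LPS difference of the 32 genes was 0.295 on the arrays labelled Bid-/- and 0.185 on the WT arrays. Over all genes it was -0.10 and -0.05. Of the 32 genes 21 and 20 were above 0, against 38.6% and 44.0% of all genes.

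An additive limma fit of expression on genotype and LPS, with 1 residual degree of freedom and Benjamini-Hochberg adjustment over 11326 genes, called 0 of the 32 genes for LPS. It called 3.24% of all genes, 1.68% as higher and 1.56% as lower. At an unadjusted limma p under 0.05 the count was 12 of 32, against 28.8% of all genes. The lowest limma adjusted p belonged to Peli1 (0.0517, mean LPS difference 1.52, SE 0.21), followed by Ticam1 and Mapkapk2 (both 0.0605). The count of genes called is sensitive to the handling of the data. After quantile normalization it was 9 of 32, against 2118 of all 11294 genes. When genes with a residual of exactly 0 were left out it was 9 of 32, against 2525 of all 11157 genes. The 9 were the same genes in both settings, Peli1, Ticam1, Ticam2, Irak2, Tab3, Mapkapk2, Map2k4 and Mapk8 (higher) and Tab1 (lower). Without the genes of residual 0, the fit gave each gene a variance set by its intensity alone. The labels do not say whether the 4 arrays stem from separate cultures. The residual behind these p-values is the difference of LPS response between the labels, moderated by limma over all genes. With 1 array a group, it cannot tell technical spread from a true difference between the labels.

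**Figure D1:**
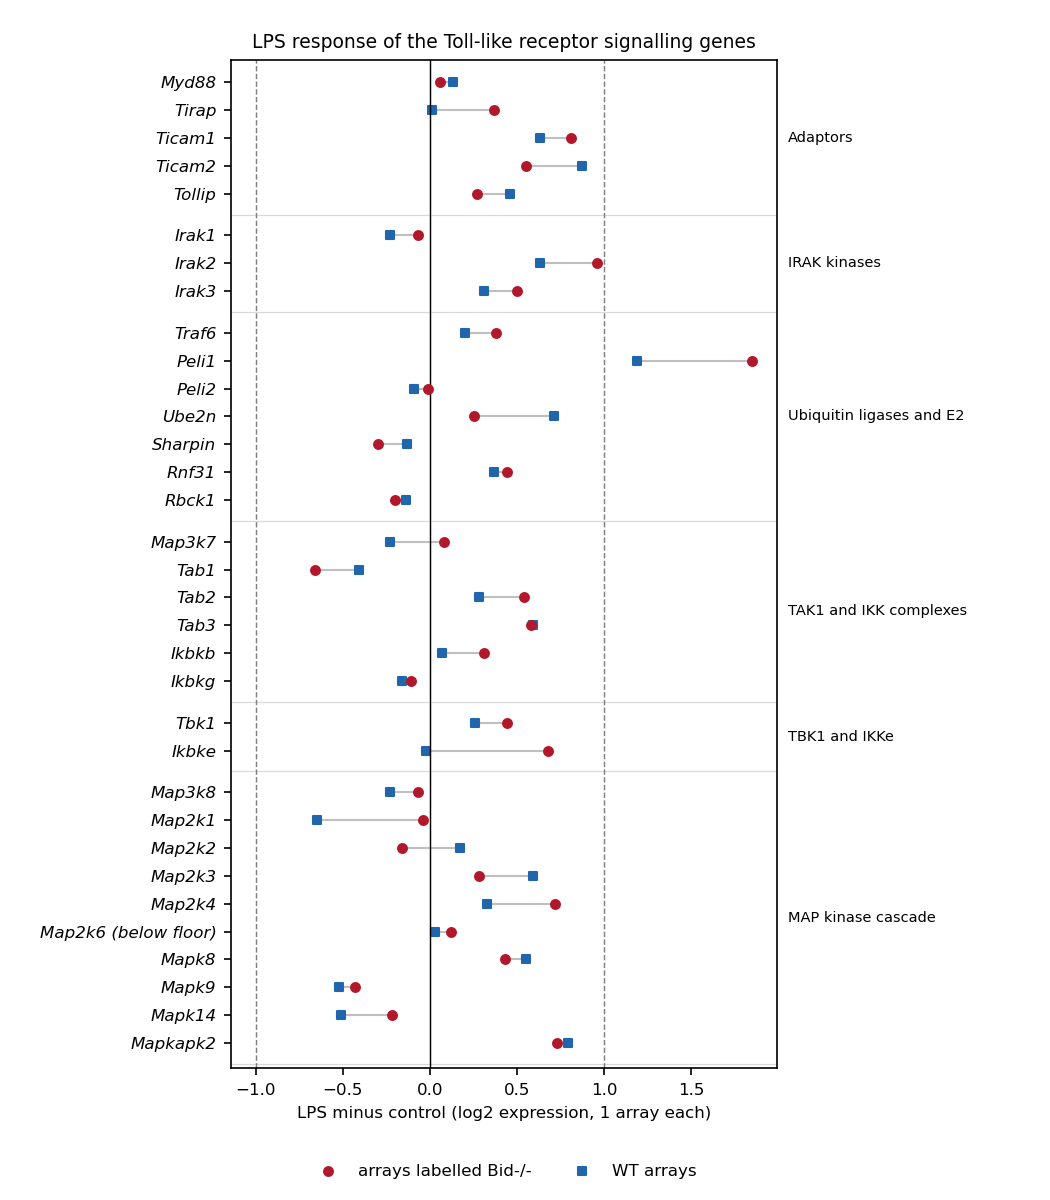
LPS minus control on the log2 scale for the 33 measured genes, grouped by role, with circles for the arrays labelled Bid-/- and squares for the WT arrays (1 array per condition, no error bars); dashed lines mark 2-fold. Only Peli1 lies beyond 2-fold, at 1.85 and 1.19, and all other genes lie between -0.66 and 0.96.

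Among the adaptors, the pair that serves the endosomal branch was higher with LPS in both genotypes and Myd88 was nearly level. Ticam1 (probe set 10452022), which encodes TRIF, read 6.21 with LPS and 5.40 without it on the arrays labelled Bid-/-, and 6.39 with LPS and 5.76 without it on the WT arrays. Ticam2, which encodes TRAM, the bridge between Tlr4 and TRIF, read 7.23 with LPS and 6.68 without it on the arrays labelled Bid-/-, and 7.40 with LPS and 6.53 without it on the WT arrays. The differences were 0.81 and 0.63 for Ticam1 and 0.55 and 0.87 for Ticam2, on the arrays labelled Bid-/- and the WT arrays in that order. For these genes limma adjusted p was 0.0605 and 0.082. Myd88, the adaptor of nearly all Toll-like receptors, read 9.81 with LPS and 9.75 without it on the arrays labelled Bid-/-, and 9.92 and 9.79 on the WT arrays with and without LPS. Its 4 values span 0.17, less than the SD of the difference between the untreated arrays over all probe sets (0.186). That SD covers dim and bright probe sets and both genotype labels, so it is not the spread of this probe set. Tirap, which brings Myd88 to Tlr4, differed by 0.37 on the arrays labelled Bid-/- and by 0.01 on the WT arrays, its untreated value being 5.99 in the cells labelled Bid-/- and 6.33 in WT. Tollip, an adaptor that restrains IRAK signalling, differed by 0.27 and 0.46.

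Among the IRAK kinases, Irak2 and Irak3 were higher with LPS in both genotypes and Irak1 was near level. Irak2 (probe set 10540795), a kinase that sustains signalling downstream of Myd88, read 8.94 with LPS and 7.98 without it on the arrays labelled Bid-/-, and 8.56 with LPS and 7.93 without it on the WT arrays. The difference was 0.96 and 0.63 (limma adjusted p = 0.0784), and the untreated arrays were 0.05 apart. Irak3, also called IRAK-M, an inhibitory member of the family, read 9.96 with LPS and 9.46 without it on the arrays labelled Bid-/-, and 9.70 with LPS and 9.39 without it on the WT arrays. Its difference of 0.50 and 0.31 was smaller than that of Irak2 in both genotypes. Irak1, the kinase that is modified and degraded early after receptor activation, read 6.65 with LPS and 6.72 without it on the arrays labelled Bid-/-, and 6.48 with LPS and 6.71 without it on the WT arrays. Its LPS difference on the arrays labelled Bid-/- ran from -0.07 to 0.15 over the ways of processing, so it has no settled direction there.

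The promoters of Irak2 and Irak1 are shown because these related kinases differed in their LPS values. They are RefSeq sequences of build GRCm38.p6, from 250 bases before to 50 bases after the annotated start, at chr6:113638217-113638516 (plus strand) and chrX:74023869-74024168 (minus strand). The table held promoters for 32 of the 39 genes. Both strands were searched for the NF-kB consensus, the AP-1 site TGANTCA and the cyclic AMP response element TGACGTCA, and capitals mark a match.
Irak2: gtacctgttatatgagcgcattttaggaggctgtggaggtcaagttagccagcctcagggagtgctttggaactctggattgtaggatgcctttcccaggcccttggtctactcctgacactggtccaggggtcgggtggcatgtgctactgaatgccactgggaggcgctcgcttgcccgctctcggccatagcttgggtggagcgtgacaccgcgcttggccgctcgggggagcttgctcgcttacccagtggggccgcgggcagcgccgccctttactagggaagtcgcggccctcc
Irak1: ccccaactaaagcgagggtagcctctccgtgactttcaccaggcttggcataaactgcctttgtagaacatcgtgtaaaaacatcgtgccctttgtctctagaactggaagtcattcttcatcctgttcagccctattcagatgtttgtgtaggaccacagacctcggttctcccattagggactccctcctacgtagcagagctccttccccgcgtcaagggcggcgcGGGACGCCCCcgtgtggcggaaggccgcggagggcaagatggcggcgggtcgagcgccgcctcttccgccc
The Irak1 window held an NF-kB consensus match that begins 21 bases before the start, and the Irak2 window held none of the 3 motifs. Over all 32851 promoter windows, 8.46% held the NF-kB consensus, 7.81% the AP-1 site and 1.79% the cyclic AMP response element. Of the 46 windows of the listed genes, 4 held the NF-kB consensus (Irak1 with 2 windows, Map3k7 and Traf3), 5 the AP-1 site (Ikbkg with 3 windows, Ikbke and Map2k6) and 0 the cyclic AMP response element. A match describes these letters and is not a binding site.

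Peli1 had the largest LPS difference of all 32 genes in both genotypes, while its paralogue Peli2 was level. Both encode Pellino proteins, ubiquitin ligases that bind IRAK kinases. Peli1 (probe set 10374485) read 10.66 with LPS and 8.81 without it on the arrays labelled Bid-/-, and 10.33 with LPS and 9.14 without it on the WT arrays. That is a 3.61-fold difference on the arrays labelled Bid-/- and a 2.28-fold difference on the WT arrays. Both LPS arrays were at least 1.19 above either control array, and the WT values lay inside those labelled Bid-/-. Peli2 read 4.88 with LPS and 4.89 without it on the arrays labelled Bid-/-, and 4.70 with LPS and 4.79 without it on the WT arrays. Peli2 lay close to the floor, where a change may not be detectable.

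The Peli1 and Peli2 promoters are printed because these paralogues differed in their LPS values, at chr11:21091074-21091373 and chr14:48120619-48120918 (both plus strand, RefSeq, GRCm38.p6). Neither window holds a capital, since none of the 3 motifs was found.
Peli1: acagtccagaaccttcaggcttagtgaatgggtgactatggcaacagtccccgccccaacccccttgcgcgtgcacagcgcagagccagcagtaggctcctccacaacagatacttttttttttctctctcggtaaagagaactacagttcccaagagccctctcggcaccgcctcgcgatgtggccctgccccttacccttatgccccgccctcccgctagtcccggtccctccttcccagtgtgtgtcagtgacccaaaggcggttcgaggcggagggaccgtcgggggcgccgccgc
Peli2: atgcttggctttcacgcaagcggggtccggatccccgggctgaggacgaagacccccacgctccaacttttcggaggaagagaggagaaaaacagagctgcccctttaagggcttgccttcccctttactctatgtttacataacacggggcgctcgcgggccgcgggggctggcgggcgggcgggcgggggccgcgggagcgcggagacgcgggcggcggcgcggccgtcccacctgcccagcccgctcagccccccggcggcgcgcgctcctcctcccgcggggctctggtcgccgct
G and C make up 61.7% of the Peli1 window and 71.7% of the Peli2 window, against a median of 52.7% over all promoter windows.

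Among the other ubiquitin enzymes, Ube2n was higher with LPS mainly on the WT arrays. Ube2n encodes Ubc13, the conjugating enzyme that works with Traf6. Its probe set 10530759 read 7.73 with LPS and 7.48 without it on the arrays labelled Bid-/-, and 8.32 with LPS and 7.61 without it on the WT arrays. The difference was 0.25 and 0.71, and the WT LPS array stood above the other arrays. A second probe set with the same symbol (10365918) gave 0.28 and 0.65. Traf6, the ligase that makes the chains read by TAK1, read 6.87 with LPS and 6.49 without it on the arrays labelled Bid-/-, and 6.40 with LPS and 6.20 without it on the WT arrays. Between the labels it differed by 0.47 with LPS and 0.29 without it, against LPS differences of 0.38 and 0.20. The subunits of the linear ubiquitin chain assembly complex, Rnf31, Rbck1 and Sharpin, read in different directions in the values as deposited. Rnf31, its catalytic subunit, differed by 0.44 on the arrays labelled Bid-/- and 0.37 on the WT arrays, Rbck1 by -0.20 and -0.14, and Sharpin by -0.30 and -0.13. Over the ways of processing Rbck1 reached -0.03 on the arrays labelled Bid-/- and -0.0 on the WT arrays, so its direction is not settled in WT. Rnf31 and Sharpin kept their signs.

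**Figure D2:**
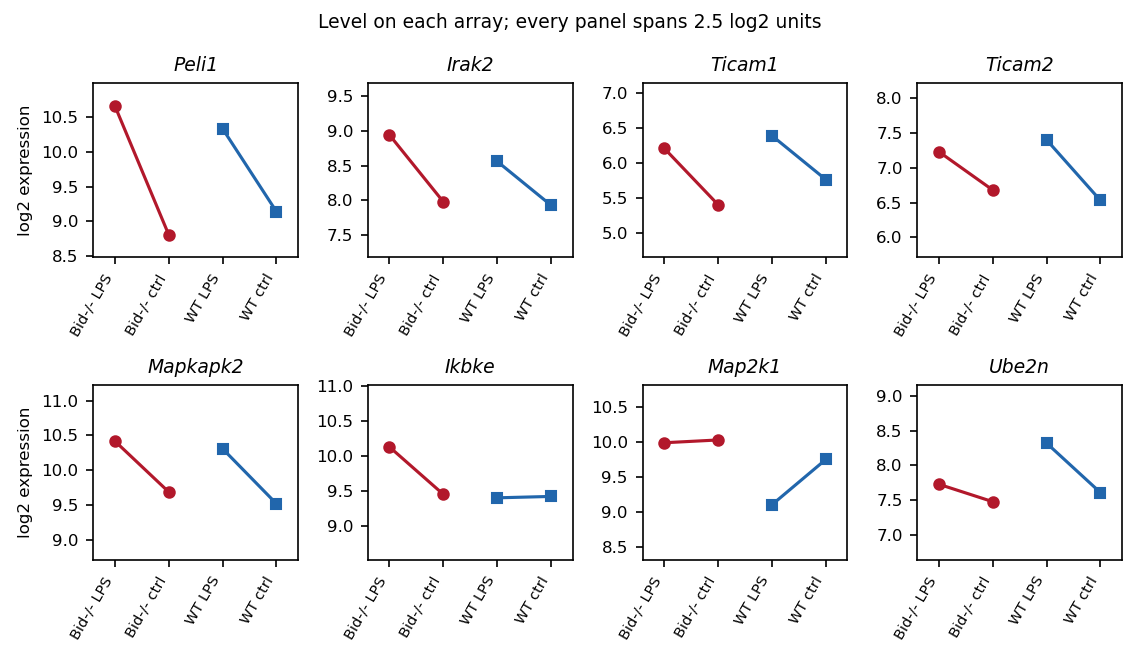
log2 expression of 8 of the genes on each of the 4 arrays, each panel spanning 2.5 log2 units (circles, arrays labelled Bid-/-; squares, WT arrays; lines join the LPS and control array of a label, 1 array per point). Peli1, Irak2, Ticam1, Ticam2 and Mapkapk2 are higher with LPS in both labels, Ikbke only on the array labelled Bid-/-, Ube2n mostly in WT, and Map2k1 is lower with LPS on the WT array alone.

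In the TAK1 complex, the regulatory subunits differed in direction and the kinase itself stayed near its untreated level. Map3k7, which encodes TAK1, read 7.72 with LPS and 7.64 without it on the arrays labelled Bid-/-, and 7.33 with LPS and 7.56 without it on the WT arrays. Tab1, which activates TAK1 by binding it, read 4.49 with LPS and 5.15 without it on the arrays labelled Bid-/-, and 4.42 with LPS and 4.83 without it on the WT arrays. The values of Tab1 lay close to the floor, with differences of -0.66 and -0.41 (limma adjusted p = 0.0815). Tab3, which like Tab2 binds ubiquitin chains, read 6.58 with LPS and 6.00 without it on the arrays labelled Bid-/-, and 6.46 with LPS and 5.87 without it on the WT arrays. Its difference of 0.58 and 0.59 was nearly equal in both genotypes (limma adjusted p = 0.0761). Tab2 differed by 0.54 and 0.28. Of the IKK subunits, the kinase Ikbkb differed by 0.31 and 0.07 and the scaffold Ikbkg, also called NEMO, by -0.11 and -0.16. The sign for Ikbkg turned with the processing on the arrays of both labels (-0.11 to 0.07 on those labelled Bid-/- and -0.16 to 0.06 in WT).

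Among the kinases of the interferon branch, Ikbke was higher with LPS in the cells labelled Bid-/- and level in WT. Ikbke and Tbk1 encode related kinases that phosphorylate Irf3. Ikbke (probe set 10357604) read 10.13 with LPS and 9.45 without it on the arrays labelled Bid-/-, and 9.40 with LPS and 9.42 without it on the WT arrays. The LPS array labelled Bid-/- stood 0.68 or more above the other 3 arrays, which lay within 0.05 of each other. Tbk1 was higher with LPS in both, at 8.74 with LPS and 8.30 without it on the arrays labelled Bid-/- and 8.48 with LPS and 8.22 without it on the WT arrays. The Ikbke promoter is printed because it held 1 of the AP-1 matches (chr1:131279514-131279813, minus strand, RefSeq, GRCm38.p6), in capitals, which begins 6 bases before the annotated start.
Ikbke: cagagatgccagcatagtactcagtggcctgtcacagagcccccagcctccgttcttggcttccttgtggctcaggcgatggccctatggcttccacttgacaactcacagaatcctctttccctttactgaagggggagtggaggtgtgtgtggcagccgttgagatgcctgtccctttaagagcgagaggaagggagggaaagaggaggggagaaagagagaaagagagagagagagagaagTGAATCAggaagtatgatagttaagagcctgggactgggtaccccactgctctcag

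In the MAP kinase cascade, the kinase at the end of the p38 branch was higher with LPS while p38 alpha itself was lower. Mapkapk2 (probe set 10357579), which encodes MK2, a regulator of cytokine mRNA stability, read 10.42 with LPS and 9.69 without it on the arrays labelled Bid-/-, and 10.31 with LPS and 9.52 without it on the WT arrays. Mapk14, which encodes p38 alpha, read 7.87 with LPS and 8.09 without it on the arrays labelled Bid-/-, and 7.50 with LPS and 8.01 without it on the WT arrays. The differences were 0.73 and 0.79 for Mapkapk2 (limma adjusted p = 0.0605) and -0.22 and -0.51 for Mapk14 (limma adjusted p = 0.235). Map2k3, an activator of p38, differed by 0.28 and 0.59.

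In the JNK branch the genes of both JNK kinases went opposite ways. Mapk8, which encodes JNK1, read 6.66 with LPS and 6.23 without it on the arrays labelled Bid-/-, and 6.64 with LPS and 6.09 without it on the WT arrays. Mapk9, which encodes JNK2, read 6.86 with LPS and 7.29 without it on the arrays labelled Bid-/-, and 6.81 with LPS and 7.33 without it on the WT arrays. The differences were 0.43 and 0.55 for Mapk8 and -0.43 and -0.52 for Mapk9 (limma adjusted p = 0.103 and 0.124). Map2k4, which activates JNK, read 7.75 with LPS and 7.03 without it on the arrays labelled Bid-/-, and 7.27 with LPS and 6.94 without it on the WT arrays.

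In the ERK branch, Map3k8 was near level and Map2k1 differed between the labels. Map3k8 encodes Tpl2, the kinase that links LPS to ERK in macrophages; it read 7.91 with LPS and 7.98 without it on the arrays labelled Bid-/-, and 7.83 with LPS and 8.06 without it on the WT arrays. Map2k1 (probe set 10594447), which encodes the ERK activator MEK1, read 9.99 with LPS and 10.03 without it on the arrays labelled Bid-/-, and 9.10 with LPS and 9.75 without it on the WT arrays. The WT LPS array was the low one. Map2k2, which encodes MEK2, differed by -0.16 on the arrays labelled Bid-/- and by 0.17 on the WT arrays.

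Between the genotype labels, none of the genes was 2-fold apart. Over all probe sets the labels differed more with LPS than without it (SD of the difference 0.31 and 0.186). With LPS, 0 of 32 genes differed by at least 2-fold between the array labelled Bid-/- and the WT array, against 0.815% of 11044 genes. At least 1.5-fold higher on the array labelled Bid-/- were 2 genes (4.69% of all genes), Map2k1 by 0.89 and Ikbke by 0.73. Ube2n, by -0.59, was the 1 gene at least 1.5-fold lower (6.07% of all genes). Of the 32 genes 24 were above 0 (50.9% of all genes), with a median of 0.115 against 0.01 over all genes. All 6 measured TAK1 and IKK genes and all 3 measured IRAK genes were above 0, whereas 4 of the 5 adaptors were below. These counts hold for the values as deposited. The sign turned with the processing for Tab3 (-0.07 to 0.12), Mapk8 (-0.18 to 0.02) and Mapk9 (-0.10 to 0.05). It also turned for the adaptors Myd88 (-0.11 to 0.08) and Tirap (-0.02 to 0.02). Over the 6 alternatives that change values or the floor, Map2k1 stayed between 0.74 and 1.05, Ikbke between 0.71 and 0.89 and Ube2n between -0.70 and -0.57. Some other differences with LPS depended more on the processing: the lowest values over the same settings were 0.24 for Map2k4 (0.48 as deposited) and 0.18 for Map3k7 (0.39 as deposited).

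Without LPS, 0 of 32 genes were at least 1.5-fold apart (1.89% of 10909 genes either way), and the values ran from -0.36 for Ticam1 to 0.32 for Tab1. Of the 32 genes 22 were above 0, 9 below and 1 (Sharpin) equal on both arrays; 51.6% of all genes were above 0. The additive limma fit called 0 of 32 genes and 0.0% of all genes for genotype; at an unadjusted limma p under 0.05 the counts were 2 of 32 and 6.26%. With 1 array a group, any other way in which the animals or cells behind the labels differed cannot be told apart from the genotype label. Fibroblast and mural markers also differed between the labels, by a list median of 0.765 without LPS and 0.215 with it. With LPS this list was split: 6 of 8 genes were above 0, but Tagln (-1.43) and Acta2 (-0.9) were below. Microglial markers differed by a list median of -0.015 without LPS and -0.40 with it (8 of 11 below 0). The summed linear level of the 12 microglial markers was 11067 on the LPS array labelled Bid-/- and 13697 on the WT LPS array. The part of either marker list in these differences was not tested.

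**Figure D3:**
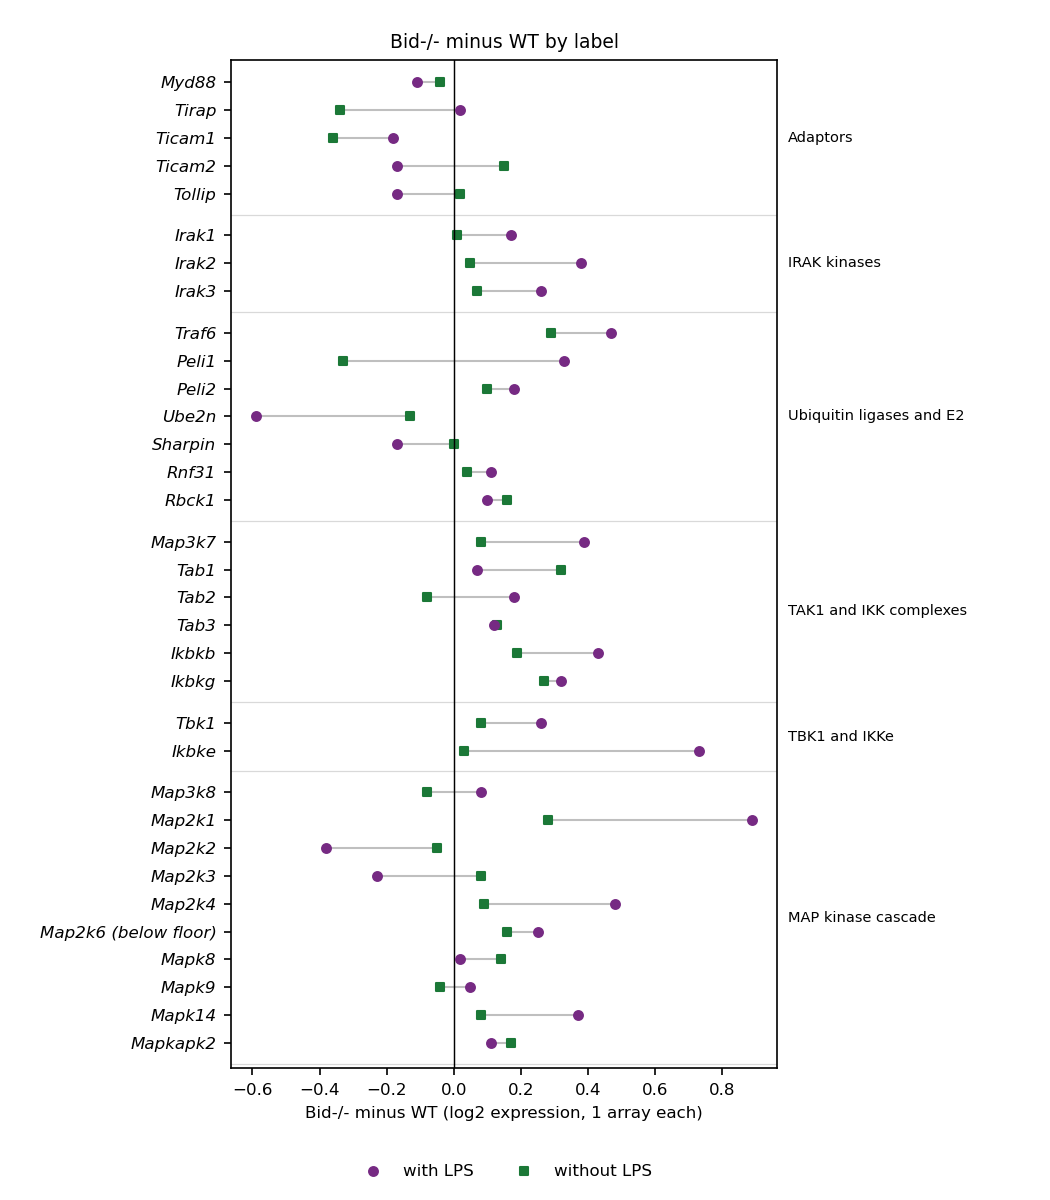
Array labelled Bid-/- minus WT array on the log2 scale for the 33 measured genes, with LPS (circles) and without it (squares), 1 array per condition and no error bars. With LPS, Map2k1 (0.89) and Ikbke (0.73) lie farthest to the right and Ube2n (-0.59) farthest to the left, while without LPS all values lie between -0.36 and 0.32.

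The LPS response on the arrays labelled Bid-/- minus that on the WT arrays exceeded 1.5-fold, in the higher direction, for 3 of 32 genes (3.26% of 11326 genes) and lower for 0 (6.06%). The 3 were Ikbke (0.70), Peli1 (0.66) and Map2k1 (0.61). For Peli1 the untreated value was 0.33 lower and the LPS value 0.33 higher on the arrays labelled Bid-/- than on the WT arrays. For Ikbke and Map2k1 the LPS arrays carried most of it, with 0.73 and 0.89 between the labels with LPS and 0.03 and 0.28 without it. The lowest value was that of Ube2n (-0.46), and 20 of 32 genes were above 0, against 49.4% of all genes. This quantity shares its arrays with the comparisons above. It is also the residual of the additive limma fit, and it was not tested.

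The rest of the pathway was read from lists set by known function, drawn up with earlier results of these data known. Of the receptors and co-receptors, 4 of 16 were above 0 on the arrays labelled Bid-/- (38.6% of all genes) and 4 of 16 on the WT arrays (44.0% of all genes), with LPS medians of -0.21 on the arrays labelled Bid-/- and -0.265 on the WT arrays, and the limma fit called 0 of 16. Of 33 further signalling genes past the floor, 3 rose and 1 fell in the limma fit, against 1.68% and 1.56% of all genes. Their medians were 0.04 on the arrays labelled Bid-/- and 0.00 on the WT arrays. Malt1, a paracaspase, rose most (3.11 on the arrays labelled Bid-/- and 2.99 on the WT arrays, limma adjusted p = 0.0209), and Traf1, a TRAF protein without ligase activity, by 1.29 and 1.75. Mapkapk3, the paralogue of Mapkapk2, also rose (0.98 and 1.16). Tifa, an adaptor that binds Traf6, fell (-1.26 and -1.34).

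Inhibitors of the pathway were the list with the highest median LPS difference in both genotypes, and 8 of 19 were at least 2-fold higher on the arrays of either label. Over all genes the shares were 2.7% on the arrays labelled Bid-/- and 2.39% on the WT arrays. Of the 19 inhibitor genes 7 rose in the limma fit and 0 fell, against 1.68% and 1.56% of all genes. Their medians were 0.91 on the arrays labelled Bid-/- and 0.97 on the WT arrays. Tnfaip3, which encodes the ubiquitin-editing enzyme A20, rose by 2.68 and 2.43, the MAP kinase phosphatase genes Dusp1 by 2.29 and 2.27 and Dusp16 by 2.39 and 1.99, Zc3h12a, which encodes an RNase, by 2.02 and 1.59, and the A20 partner Tnip1 by 1.52 and 1.31. Of 17 transcription factor genes 3 rose and 0 fell in the limma fit, against 1.68% and 1.56% of all genes. The 3 were the NF-kB subunits Rel (2.09 and 1.38) and Nfkb2 (1.31 and 1.31) and the AP-1 member Fosl1 (1.03 and 1.52). With no floor on intensity the limma fit called 0 genes for LPS, these included (3751 at an unadjusted limma p under 0.05). The differences between lists were not tested. Since the lists were drawn up with earlier results known, their order is a description only.

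**Figure D4:**
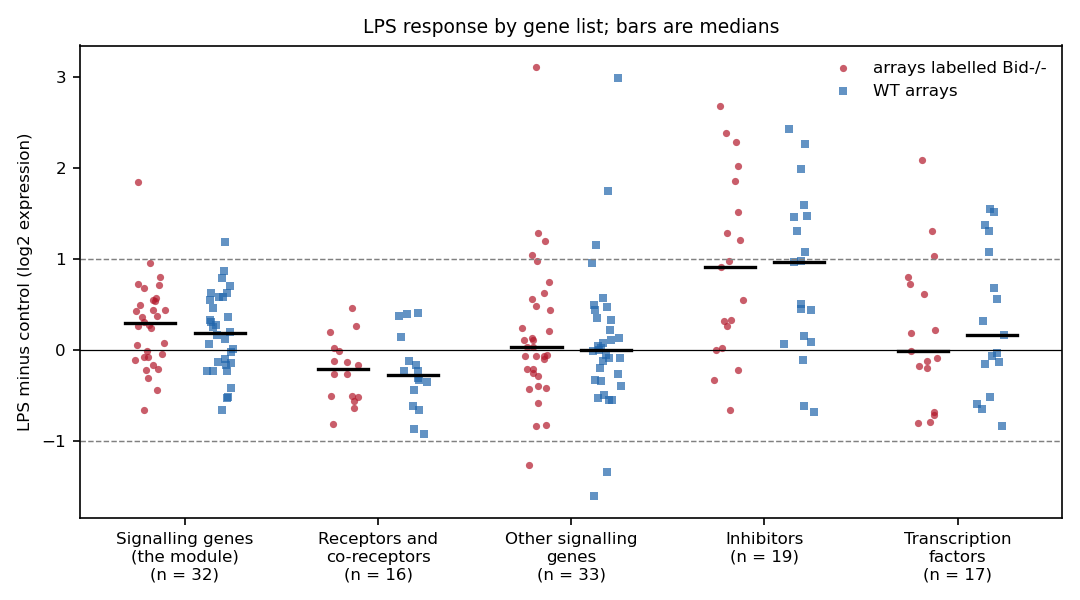
LPS minus control on the log2 scale for each gene past the floor in the signalling genes described here and in 4 further lists of the pathway (circles, arrays labelled Bid-/-; squares, WT arrays; black bars, list medians; dashed lines, 2-fold). The inhibitors have medians of 0.91 and 0.97, the signalling genes 0.295 and 0.185, and the receptors -0.21 and -0.265, on the arrays labelled Bid-/- and the WT arrays.

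Of the fibroblast and mural markers past the floor, 3 of 8 read above 0 with LPS on the arrays labelled Bid-/- (list median -0.085) and 8 of 8 on the WT arrays (0.76). The microglial markers had LPS list medians of -0.405 on the arrays labelled Bid-/- and -0.115 on the WT arrays. The part of either marker list in the LPS differences was not tested.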

How the data were processed

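Biotin-labelled DNA made from total RNA of microglia was hybridised to 4 Affymetrix Mouse Gene 1.0 ST arrays, 1 per group, per the labels. The authors deposited log2 expression values for 28944 probe sets; per the submitters' processing notes, the tools were RMA, Affymetrix Expression Console and Partek 6.2, whose roles are not stated. The log2 base is not written in the file and was read from the range (1.4 to 13.5) and from RMA, so every fold rests on that reading. RMA brings arrays toward a common distribution, which can remove a shift shared by all genes. The deposited arrays were not fully alike, with medians from 4.24 to 4.28 and highest values from 13.08 to 13.5. Quantile normalization therefore still changed values. The number of arrays limits the precision.

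Probe sets were named from the platform annotation: 21789 had 1 symbol, 1621 several and 5534 none, and the last 2 kinds were not named. The brightest probe set stood for a gene, giving 19938 genes. All 34 probe sets of the listed genes matched RefSeq gene identifiers, with 0 symbols changed. Comparisons used genes whose higher array reached 4.26. Differences between single arrays were given no p-value. The additive model used limma 3.58.1 under R 4.3.3 (lmFit, eBayes with intensity trend, Benjamini-Hochberg, threshold 0.05) on 11326 genes. On simulated data it was required to return, on average, the size of the LPS differences put in. That check does not tell how far the p-values hold. Trends were removed with lowess (statsmodels 0.14.6, fraction 0.4).

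All 39 genes were named by symbol; those at least 2-fold apart with LPS, or 1.5-fold apart between labels or responses, were to be given on all arrays, as were others chosen after their values were seen, among them the promoters other than that of Peli1. Of further pathway lists, up to 5 genes at least 2-fold apart with LPS in both genotypes were named, and Mapkapk3 because the fit called it. Genes and lists were chosen with earlier results of these data known.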

Additional observations from a re-analysis of the deposited data

Results flagged for a closer look

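For 3 of the 32 genes the LPS difference had opposite signs on the arrays of the 2 labels, each label having 1 pair of arrays, and this was not tested. The LPS difference was 0.08 on the arrays labelled Bid-/- and -0.23 on the WT arrays for Map3k7 (difference of response 0.31), 0.68 and -0.02 for Ikbke (0.70), and -0.16 and 0.17 for Map2k2 (-0.33). For Ikbke the WT value is close to 0 and its sign changes with the processing (-0.12 to 0.08). Bid itself had an LPS difference of 0.44 on the arrays labelled Bid-/- and -0.67 on the WT arrays, a difference of response of 1.11.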

How the results depend on the processing

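All 22 single-gene differences of at least 1.5-fold kept their sign under the 6 alternatives that change values or the floor. Peli1 stayed the gene at least 2-fold higher in both genotypes. The kept signs are a weak check. A change of floor leaves a gene's difference as it is, and averaging probe sets can change only Ube2n. Counts that moved were as follows. Under LPS, genes at least 2-fold higher in the cells labelled Bid-/- numbered 2 after quantile normalization (Irak2 added), 3 with the intensity trend removed (Irak2 and Ticam1 added) and 2 with the span trend removed as well (Ticam1 added). In WT they numbered 2 in that last setting (Ticam2 added). Quantile normalization put 1 gene, Map2k1, past 2-fold between the labels with LPS. At 1.5-fold the counts were 6 higher and 1 lower (LPS, labelled Bid-/-), 8 and 1 (LPS, WT), 4 (higher in both), 2 and 1 (labels, with LPS) and 3 (difference of response, higher). The limma fit called for LPS 9 of the 32 genes after quantile normalization, 9 without genes of residual 0, 3 with a floor 1 unit higher and 2 without the genotype term; over all genes, against 367, the LPS calls were 2118, 2525, 891 and 876 in those settings and 0 with no floor. For genotype it called 0 of 32 in every setting, and 0 of all genes except 54 after quantile normalization and 212 without genes of residual 0. The values have 2 decimals, and 169 genes had a residual of exactly 0. Intensity trend removal moved the median LPS difference of all genes on the arrays labelled Bid-/- to 0.01, against -0.10; the median of the 32 genes was then 0.393. Of all genes past 2-fold, the share that was higher moved by over 10 points to 77.1% against 62.1% (LPS, labelled Bid-/-) and 69.0% against 53.5% (LPS, WT) with both trends removed, to 52.9% against 40.0% (labels, with LPS) after quantile normalization, and to 32.5% against 20.2% (difference of response) with both trends removed. The cause of these shifts was not tested. No paired analysis was possible because the labels give no replicate numbers to pair arrays by; the limma fit for LPS already holds the genotype label as a term. Dim probe sets such as Peli2 and Tab1 limit what could be detected.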
